A study of Mus musculus with 39 samples.

Results

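The difference between TrkC GFPon and TrkC GFPoff dorsal root ganglion (DRG) cells of mice that lacked both neurotrophin 3 (NT3) and Bax was measured on 4 Affymetrix Mouse Genome 430 2.0 arrays, 2 for each population, of the 39 arrays of the series. The 4 arrays are those labelled with this genotype and these populations, and all 45037 probe sets that are not Affymetrix controls were used. NT3-/-Bax-/- TrkC GFPon and TrkC GFPoff cells were set beside the same populations of Bax-/- mice, which lack Bax and keep NT3, and of wild-type mice, again with 2 arrays per population. The plots label the 3 genotypes NT3Bax, Bax and WT. All mice were at postnatal day 0 (P0), carried the TrkCGFP transgene, in which GFP follows regulatory elements of the TrkC gene on a bacterial artificial chromosome, and were on a mixed 129/C57Bl6 background. The NT3 and Bax deletions were in every cell of the animal and not only in neurons. Lumbar DRG from L1 to L6 were pooled, cells were sorted by GFP fluorescence, and on average 350 cells went into a data point. The fit also held the same populations of mlcNT3 mice, which express surplus NT3 in skeletal muscle, so the spread came from 16 arrays in 8 groups. The labels do not say whether the arrays of a group came from separate animals. The p-values therefore measure the spread between arrays of a group over those 16, which may be technical.

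NT3 is a secreted neurotrophin made by skeletal muscle. Its receptor TrkC, encoded by Ntrk3, is found on proprioceptors, the sensory neurons that innervate muscle spindles and Golgi tendon organs. Proprioceptors die early when NT3 or TrkC is missing. Bax is a death effector at the mitochondrion, and its deletion keeps such neurons alive, so that transcription can be examined apart from survival. TrkC signals through the Ras and ERK kinase cascade among others, and this cascade induces feedback inhibitors such as the Sprouty and Spred proteins and the dual-specificity phosphatases. TrkC GFPoff cells are the rest of the ganglion, in which nociceptors and thermoreceptors are the most numerous neurons. The paper found GFP in only part of the TrkC-positive cells. TrkC GFPoff cells therefore also hold TrkC-positive neurons, which the paper takes to be most likely mechanoreceptors of the skin.

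The TrkC GFPoff arrays of NT3-/-Bax-/- mice stood apart from the other TrkC GFPoff arrays. The mean log2 value of 7 connective tissue genes was 11.81 and 12.56 on these 2 arrays, against 7.46 to 8.58 in Bax-/- and 7.34 to 7.84 in wild-type TrkC GFPoff cells. Col1a1, a chain of type I collagen, read 3564 and 5434 in NT3-/-Bax-/- TrkC GFPoff cells, and 48.7 and 102.9 in Bax-/- TrkC GFPoff cells. Endothelial genes averaged 7.89 to 7.98 there against 5.76 to 6.09 in Bax-/-, Schwann and satellite glia genes 10.50 to 10.54 against 9.36 to 9.49, and cell division genes 8.97 to 9.50 against 6.13 to 6.40. Macrophage genes were high on one of the arrays only, with a list mean of 9.01 on replicate 1 and 4.95 on replicate 2. Csf1r, the receptor of a macrophage growth factor, read 8320 and 290 on these arrays. NT3-/-Bax-/- TrkC GFPon cells were below these TrkC GFPoff arrays, with 4.60 to 4.61 for macrophages, 5.11 to 5.42 for endothelium and 7.62 to 8.26 for glia. Glia genes in them were also below the 8.94 to 9.27 of Bax-/- and 8.88 to 9.12 of wild-type TrkC GFPon cells. Connective tissue genes averaged 7.45 to 7.68 in NT3-/-Bax-/- TrkC GFPon cells, above the 6.59 to 7.00 of Bax-/- and 6.51 to 6.74 of wild-type TrkC GFPon cells. In this list Postn, which encodes periostin, read 9371 and 8328 in NT3-/-Bax-/- TrkC GFPon cells against 756.9 and 1284 in Bax-/- TrkC GFPon cells. Replicates correlated at 0.978 for NT3-/-Bax-/- TrkC GFPon and 0.972 for TrkC GFPoff arrays, in a range of 0.972 to 0.994 over the 8 groups of the fit. The median log2 value of an array was 6.10 to 6.18. In such bulk samples fewer cells of a type and less RNA per cell cannot be told apart. How far other cells in the TrkC GFPoff arrays contribute to the differences below was not tested. Many genes are therefore given in both populations, with the call for each population against Bax-/- mice. For other genes only part of this is given. Counts are repeated with Bax-/- TrkC GFPoff arrays in the place of the NT3-/-Bax-/- ones. That swap compares TrkC GFPon cells of NT3-/-Bax-/- mice with TrkC GFPoff cells of Bax-/- mice, so it mixes genotype with population. Its test against Bax-/- mice compares only the TrkC GFPon cells. The deleted genes were not analysed here on their own transcripts, since no probe set was annotated to Bax or to Ntf3 alone.

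**Figure D1:**
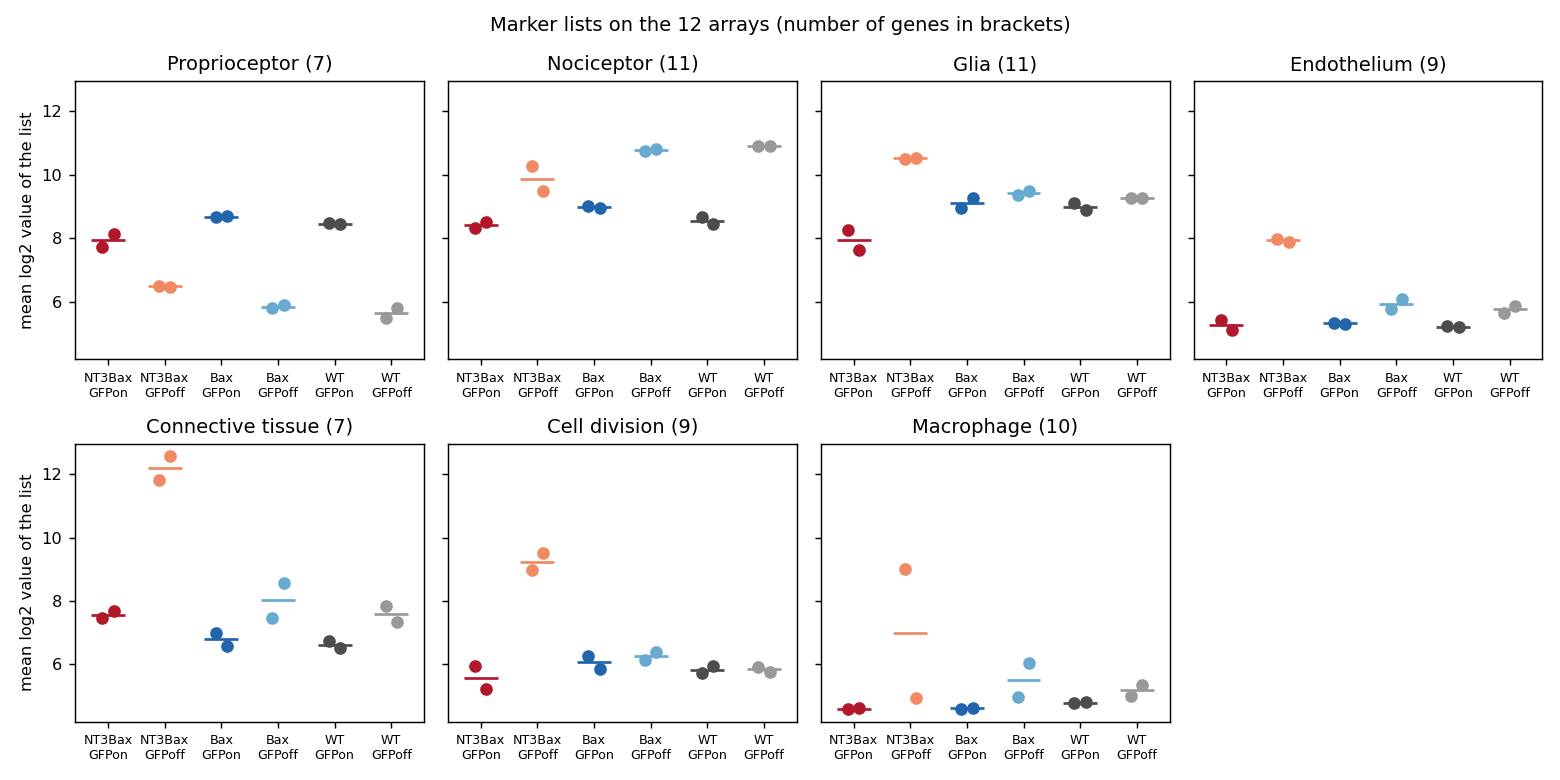
Mean log2 value of 7 marker lists (vertical axis) on each of 12 arrays, by genotype and population (horizontal axis); points are arrays and lines are means of 2 arrays. The NT3-/-Bax-/- TrkC GFPoff arrays lie above the other 5 groups for glia, endothelium, connective tissue and cell division, and 1 of them for macrophages.

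Between the populations of NT3-/-Bax-/- mice, 4680 probe sets were higher and 4027 lower in TrkC GFPon cells at an adjusted p under 0.05, which is 10.4% and 8.94% of those tested. In Bax-/- mice 1823 were higher (4.05%) and 1699 lower (3.77%), and in wild-type mice 2305 were higher (5.12%) and 1727 lower (3.83%). With 1 probe set per gene, 2258 genes were higher and 2132 lower without NT3, which is 12.4% and 11.7% of 18193 genes. All these counts use the spread over the 16 arrays. The NT3-/-Bax-/- total of 8707 was 2053 with only the arrays of the contrast in the fit and 4774 with array weights. Bax-/- and wild-type totals under these settings are not given here, so the sizes of the counts are not settled by the main fit. Overlap with Bax-/- mice was limited. Of the calls in NT3-/-Bax-/- mice, 1317 probe sets were called the same way in Bax-/- mice, which is 15.1% of the NT3-/-Bax-/- and 37.4% of the Bax-/- calls, and 323 were called the opposite way. The test of the difference itself, the population difference in NT3-/-Bax-/- minus that in Bax-/- mice, called 2039 probe sets higher (4.53%) and 2309 lower (5.13%). Against wild-type mice the same test called 2121 higher (4.71%) and 2572 lower (5.71%).

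Population differences that were called the same way in both Bax-/- and wild-type mice served as the starting list. TrkC GFPon cells were higher for 1355 such probe sets, and without NT3 43.2% of them were still called higher, 47.4% were not called and 9.45% were called lower. Of the 1091 that were lower in TrkC GFPon cells, 36.2% were still called lower, 53.6% were not called and 10.2% were called higher. A missed call alone does not show that a difference vanished, so a difference was counted as lost only where it was not called and the test against Bax-/- mice was. This left 324 lost probe sets among the higher (23.9%) and 297 among the lower (27.2%). A difference was counted as kept where it was called the same way in all 3 genotypes and the test against Bax-/- mice was not called. This held for 495 higher and 304 lower probe sets. A missed call of that test does not show that the size of a kept difference was unchanged. A difference was counted as reduced (41 and 44) or enlarged (49 and 47) where that test was called, and as reversed where the call had the opposite sign (128 and 111). A further 1108 probe sets that were higher and 1390 that were lower in NT3-/-Bax-/- TrkC GFPon cells were called in neither Bax-/- nor wild-type mice and differed from Bax-/- mice, and these were counted as gained. With Bax-/- TrkC GFPoff arrays in the place of the NT3-/-Bax-/- ones, 976 probe sets were kept, 785 lost, 159 reversed and 3897 gained, against 799, 621, 239 and 2498 with their own. The swapped counts mix genotype with population and are not like for like.

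**Figure D2:**
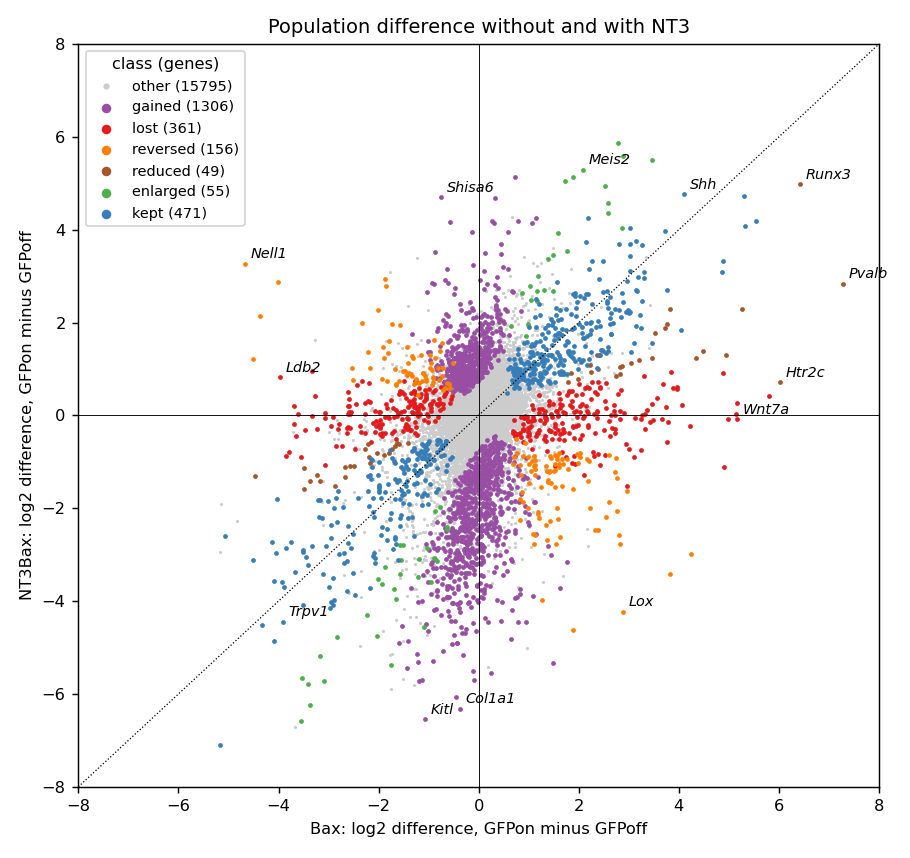
Population difference (log2, TrkC GFPon minus TrkC GFPoff) of 18193 genes in NT3-/-Bax-/- mice (vertical axis) and in Bax-/- mice (horizontal axis), with each gene's class in colour; the dotted line marks equal differences. Kept genes lie around that line, lost genes along the horizontal axis (Wnt7a), gained genes along the vertical axis (Kitl, Shisa6), and reversed genes in the upper left and lower right (Nell1, Lox).

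The classes differed in which population had moved. Among the 194 lost genes that are higher in wild-type TrkC GFPon cells, 121 were called lower in NT3-/-Bax-/- than in Bax-/- TrkC GFPon cells with no call in TrkC GFPoff cells, 35 were higher only in TrkC GFPoff cells, and 35 were called in both. Among the 167 lost genes that are lower in wild-type TrkC GFPon cells, 97 were called lower in TrkC GFPoff cells only and 43 higher in TrkC GFPon cells only. For the 762 gained genes with a lower value in TrkC GFPon cells, 476 were called higher in TrkC GFPoff cells only and 141 lower in TrkC GFPon cells only. Over all 18193 genes, 8.89% had a called rise and 12.5% a called fall against Bax-/- mice in TrkC GFPon cells, and in TrkC GFPoff cells the shares were 10.2% and 15.3%. Over all probe sets the shares were 9.05% and 9.17% in TrkC GFPon cells and 9.91% and 11.8% in TrkC GFPoff cells. These comparisons with Bax-/- mice use the arrays that also define the classes, and their counts describe the classes and do not test them.

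**Figure D3:**
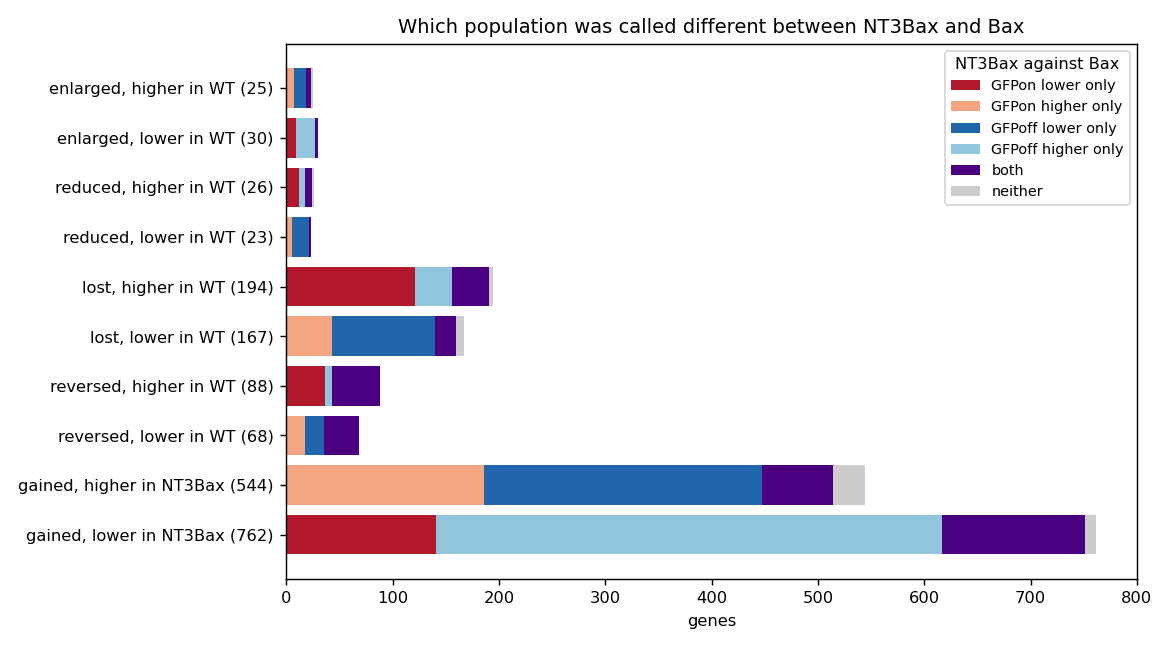
Genes (horizontal axis, count) of 5 classes split by the population in which NT3-/-Bax-/- and Bax-/- cells were called different; each bar is a class and a direction, with its number of genes in brackets. Most lost genes that are higher in wild-type TrkC GFPon cells were lower in TrkC GFPon cells only (121 of 194), and most gained genes with a lower value were higher in TrkC GFPoff cells only (476 of 762).

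The identity of the 2 populations was still visible without NT3. Runx3, a Runt domain factor that specifies proprioceptors, read 593 and 892.2 in NT3-/-Bax-/- TrkC GFPon cells against 24.68 and 21.51 in TrkC GFPoff cells, a log2 difference of 4.98 (SE 0.29, adjusted p = 8.06e-07). The populations did not overlap, and the difference was 6.43 in Bax-/- mice, where TrkC GFPon arrays read 1321 and 1600. Its test against Bax-/- (adjusted p = 0.0427) was lost without any one of 13 arrays, with adjusted p-values up to 0.122, which was the value without NT3-/-Bax-/- TrkC GFPon replicate 1. Ntrk3 read 1798 and 2355 in NT3-/-Bax-/- TrkC GFPon cells, close to the 2052 and 1685 of Bax-/- TrkC GFPon cells (log2 change 0.15, adjusted p = 0.813). In TrkC GFPoff cells, however, Ntrk3 read 543.2 and 569.9 without NT3 against 115.4 and 170.6 in Bax-/- mice (log2 change 1.99, adjusted p = 0.000803), so that the population difference was 1.89 (SE 0.31, adjusted p = 0.000946) against 3.73 in Bax-/- mice. The mean over all probe sets of Ntrk3 gave a smaller and uncalled change of the difference (-0.78, adjusted p = 0.0626), and the call was also lost without replicate 1 of Bax-/- TrkC GFPon (adjusted p = 0.0531), Bax-/- TrkC GFPoff (0.0833) or NT3-/-Bax-/- TrkC GFPon cells (0.0545), with the replicate block (0.0504) and with array weights (0.108).

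Pvalb and Pth1r lost most of their level in TrkC GFPon cells. Pvalb, the calcium buffer parvalbumin, read 156.1 and 838.5 in NT3-/-Bax-/- TrkC GFPon cells and 50.51 and 50.29 in TrkC GFPoff cells, while Bax-/- TrkC GFPon cells read 9261 and 8509. It was still higher in TrkC GFPon cells (2.84, SE 0.55, adjusted p = 0.00314), by 4.44 less than in Bax-/- mice (adjusted p = 0.00366). Pth1r, a receptor of parathyroid hormone, read 265.7 and 190.7 against 52.6 and 158 in the TrkC GFPoff cells of these mice, and 3383 and 2115 in Bax-/- TrkC GFPon cells. Its population difference of 1.30 (adjusted p = 0.0438) was not called without NT3-/-Bax-/- TrkC GFPoff replicate 1 (0.51, adjusted p = 0.36), and leaving out any one of 12 other arrays also lost the call (adjusted p up to 0.196, without TrkC GFPon replicate 1), as did the replicate block (adjusted p = 0.0682). Esrrg, an orphan nuclear receptor, had the other pattern: TrkC GFPon cells read 1935 and 2350 without NT3 and 3084 and 2795 in Bax-/- mice (adjusted p = 0.473), whereas TrkC GFPoff cells read 293.2 and 637 against 81.25 and 70.77 (log2 change 2.51, adjusted p = 0.00071). The difference was smaller by 2.97 than in Bax-/- mice (adjusted p = 0.00418), but not by the mean over its probe sets (-1.32, adjusted p = 0.0931). Of 7 measured proprioceptor markers 3 were called higher in NT3-/-Bax-/- TrkC GFPon cells (Runx3, Pvalb and Ntrk3), where 12.4% of all genes were. Ntrk3 is not independent of the sort, since GFP follows regulatory elements of this gene. The count of called markers was 4 in Bax-/- mice (5.32% of all genes) and 5 in wild-type mice (6.77%). With only the arrays of the contrast in the fit, the call of Pvalb in NT3-/-Bax-/- mice was lost (adjusted p = 0.128).

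Several nociceptor genes were lower in TrkC GFPon cells without NT3. Trpv1, the capsaicin receptor, read 55.51 and 62.54 in TrkC GFPon and 1569 and 1039 in TrkC GFPoff cells of NT3-/-Bax-/- mice (-4.44, SE 0.24, adjusted p = 5.17e-07), a difference that was -3.92 in Bax-/- mice. Runx1, a factor of nociceptor fate, read 60.44 and 30.28 against 2138 and 450.3 (-4.52, SE 0.54, adjusted p = 9.9e-05), with a wide gap between the 2 TrkC GFPoff arrays. Scn10a, the sodium channel Nav1.8, was lower in the TrkC GFPoff cells themselves, with 197.7 and 60.47 without NT3 against 1292 and 1083 in Bax-/- mice (log2 change -3.44, adjusted p = 0.000759). Its population difference was -2.59 (adjusted p = 0.00408) and its change against Bax-/- mice missed the threshold (2.47, adjusted p = 0.056), and passed it without TrkC GFPoff replicate 1 of NT3-/-Bax-/- mice (3.33, adjusted p = 0.00636) or with the replicate block (adjusted p = 0.0345). Of 11 measured nociceptor and thermoreceptor markers, 5 were called lower in NT3-/-Bax-/- TrkC GFPon cells, namely these 3 genes with Scn11a and Gfra3, and none higher, where 11.7% of all genes were called lower. The same 5 genes were called lower in Bax-/- mice (5.06% of all genes), and 6 markers were in wild-type mice (5.16%). With only the arrays of the contrast in the fit, 2 of the 11 were called lower in NT3-/-Bax-/- TrkC GFPon cells. The call of Scn11a was lost without NT3-/-Bax-/- TrkC GFPon replicate 1 (-1.19, adjusted p = 0.102) or TrkC GFPoff replicate 1 (-1.97, adjusted p = 0.134).

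Some kept differences came with no called change in either population, as for 251 of the 495 kept probe sets that are higher in TrkC GFPon cells. Shh, the secreted morphogen Sonic hedgehog, read 5083 and 7560 in NT3-/-Bax-/- TrkC GFPon cells against 233.5 and 225.4 in TrkC GFPoff cells (4.76, SE 0.24, adjusted p = 4.71e-07), and 5491 and 7022 against 407.9 and 316.6 in Bax-/- mice. Neither population changed by the test. Scn2a, the sodium channel Nav1.2, had a difference of 2.54 without NT3 and 2.62 in Bax-/- mice, with TrkC GFPon values of 2789 and 3196 without NT3 and 2387 and 2490 in Bax-/- mice. The guidance receptor Epha3 (3.98), the GABA-A receptor subunit Gabra5 (3.76) and the neurofilament Nefm (1.76) were likewise called in NT3-/-Bax-/- mice, with no called change in either population. Dcc, the netrin receptor, kept a difference of 4.19 while its TrkC GFPon values of 453.2 and 664.1 were below the 1341 and 1075 of Bax-/- mice (adjusted p = 0.0347), and without NT3-/-Bax-/- TrkC GFPoff replicate 2 the difference was called smaller than in Bax-/- mice (adjusted p = 0.00895). Cav1, the coat protein of caveolae, had the most negative difference among called genes whose arrays did not overlap, with 24.84 and 19.86 in TrkC GFPon and 2682 and 3481 in TrkC GFPoff cells (-7.10, SE 0.56, adjusted p = 5.5e-06), and its TrkC GFPon level was lower than in Bax-/- mice (-2.16, adjusted p = 0.0187). Its difference was called larger than in Bax-/- mice without Bax-/- TrkC GFPon replicate 2 (-2.75, adjusted p = 0.0414).

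For other kept differences both populations fell. Syt2, a calcium sensor of fast transmitter release, read 408.1 and 614.9 in TrkC GFPon and 97.96 and 83.29 in TrkC GFPoff cells of NT3-/-Bax-/- mice, against 2959 and 2264, and 476.3 and 404.6, in the same populations of Bax-/- mice. The population difference was 2.47 without NT3 and 2.56 in Bax-/- mice, while the level fell by 2.37 in TrkC GFPon cells (adjusted p = 2.54e-05) and by 2.28 in TrkC GFPoff cells (adjusted p = 4.4e-05). Scn1a, the sodium channel Nav1.1, fell by 3.14 and by 2.67 on the log2 scale, and kept a difference of 2.69. That difference was called smaller than in Bax-/- mice without NT3-/-Bax-/- TrkC GFPon replicate 2 (-1.39, adjusted p = 0.0476), and was not called with only the arrays of the contrast in the fit (adjusted p = 0.101). The gap junction protein gene Gjd2 fell by 3.62 in TrkC GFPon and by 2.41 in TrkC GFPoff cells, and its difference was called smaller than in Bax-/- mice without Bax-/- TrkC GFPoff replicate 1 (-1.84, adjusted p = 0.0254). Unc13c, a vesicle priming factor that is lower in TrkC GFPon cells, fell by 2.47 and by 2.67 and kept a difference of -3.70, although the mean over its probe sets gave a called change of the difference (0.86, adjusted p = 0.0184). Of the 495 kept probe sets that are higher in TrkC GFPon cells, 127 were called changed in both populations.

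Among the lost genes with large changes, 4 fell in TrkC GFPon cells with no called change in TrkC GFPoff cells. Wnt7a, a secreted Wnt ligand, read 51.3 and 64.4 in TrkC GFPon and 79.94 and 46.44 in TrkC GFPoff cells of NT3-/-Bax-/- mice, whereas Bax-/- TrkC GFPon cells read 3177 and 1974 and wild-type ones 2527 and 1990. The NT3-/-Bax-/- populations overlapped (-0.08, SE 0.32, adjusted p = 0.898), and the difference was smaller by 5.25 than in Bax-/- mice (adjusted p = 6.88e-05). Gpat3, an acyltransferase of glycerolipid synthesis, read 24.38 and 20.84 in NT3-/-Bax-/- TrkC GFPon cells against 568.3 and 658.6 in Bax-/- ones. Lancl3 (18.34 and 19.43 against 709.4 and 664.7) and the rhomboid family gene Rhbdl3 (31.17 and 48.36 against 950.9 and 863.1) had the same pattern. For all 4 genes the fall in TrkC GFPon cells was called, with log2 changes between -4.54 and -5.45, and the change in TrkC GFPoff cells was not.

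Signalling molecules were among the lost genes as well. Gabrg1, a GABA-A receptor subunit, read 18.68 and 26.28 in NT3-/-Bax-/- TrkC GFPon cells, against 745.7 and 677.3 in Bax-/- TrkC GFPon cells and 55.82 and 19.45 in the TrkC GFPoff cells of its own genotype. Epha4, an ephrin receptor, read 18.12 and 28 against 492.5 and 520.3 in Bax-/- TrkC GFPon cells. Slit2, a repellent ligand of Robo receptors, read 261.9 and 851 against 3940 and 5481. Lynx1, a membrane-anchored modulator of nicotinic receptors, read 111.5 and 104.9 against 6310 and 4270, and Scn4b, a sodium channel beta subunit, 17.28 and 19.59 against 2254 and 1188. Both fell in TrkC GFPoff cells too, Lynx1 by 1.59 (adjusted p = 0.0123) and Scn4b by 3.39 (adjusted p = 0.000351). The neuropeptide gene Vip and the lectin gene Reg3b were also lost, but their Bax-/- TrkC GFPon arrays disagreed, with 1258 and 103 for Vip and 3522 and 225.5 for Reg3b, and both tests against Bax-/- mice were lost without Bax-/- TrkC GFPoff replicate 1 (adjusted p = 0.0735 and 0.0524). The test of Vip was also lost without 4 other arrays, Bax-/- TrkC GFPoff replicate 2, either NT3-/-Bax-/- TrkC GFPon array and TrkC GFPoff replicate 2 (adjusted p from 0.0548 to 0.0787). Without NT3-/-Bax-/- TrkC GFPoff replicate 2, Gabrg1 was called lower in TrkC GFPon cells (-1.33, adjusted p = 0.0116).

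Some genes that are low in wild-type TrkC GFPon cells lost their difference by a change in either population. Ldb2, a LIM domain binding cofactor, read 2163 and 2322 in TrkC GFPon and 1753 and 921.3 in TrkC GFPoff cells of NT3-/-Bax-/- mice, against 221.3 and 380.6, and 4747 and 4358, in Bax-/- mice. It was called higher in TrkC GFPon cells (2.95, adjusted p = 0.000414) and lower in TrkC GFPoff cells (-1.84, adjusted p = 0.00682). Gfra1, the co-receptor of GDNF, changed on the TrkC GFPoff side, with 133 and 104.9 without NT3 and 1463 and 619.5 in Bax-/- mice (-3.01, adjusted p = 7.66e-05). Htr3b, a serotonin-gated channel subunit, also lost its TrkC GFPoff level, with 17.98 and 15.56 against 346.3 and 222.9.

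A few genes kept a called but much smaller difference. Htr2c, the serotonin 2C receptor, read 16.04 and 12 in TrkC GFPon and 8.605 and 8.234 in TrkC GFPoff cells, while Bax-/- TrkC GFPon cells read 923.7 and 1023. The remaining difference of 0.72 (adjusted p = 0.0309) was not called without NT3-/-Bax-/- TrkC GFPon replicate 1 (0.51, adjusted p = 0.193) or either TrkC GFPoff array (adjusted p = 0.0809 and 0.0964), and all 4 NT3-/-Bax-/- values were near the bottom of the scale. Kcnk1, a background potassium channel, had 144.7 and 76.16 in TrkC GFPon cells against 54.7 and 29.65 in TrkC GFPoff cells, and 1930 and 1065 in Bax-/- TrkC GFPon cells. Wls, which carries Wnt proteins to the cell surface, fell by 1.25 in TrkC GFPon cells (adjusted p = 0.013) and rose by 1.85 in TrkC GFPoff cells (adjusted p = 0.00114). The calls of Kcnk1 and Wls in NT3-/-Bax-/- mice were lost without TrkC GFPon replicate 1 (adjusted p = 0.165 and 0.103), and also without TrkC GFPoff replicate 2 for Kcnk1 (0.147) and replicate 1 for Wls (0.0639).

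**Figure D4:**
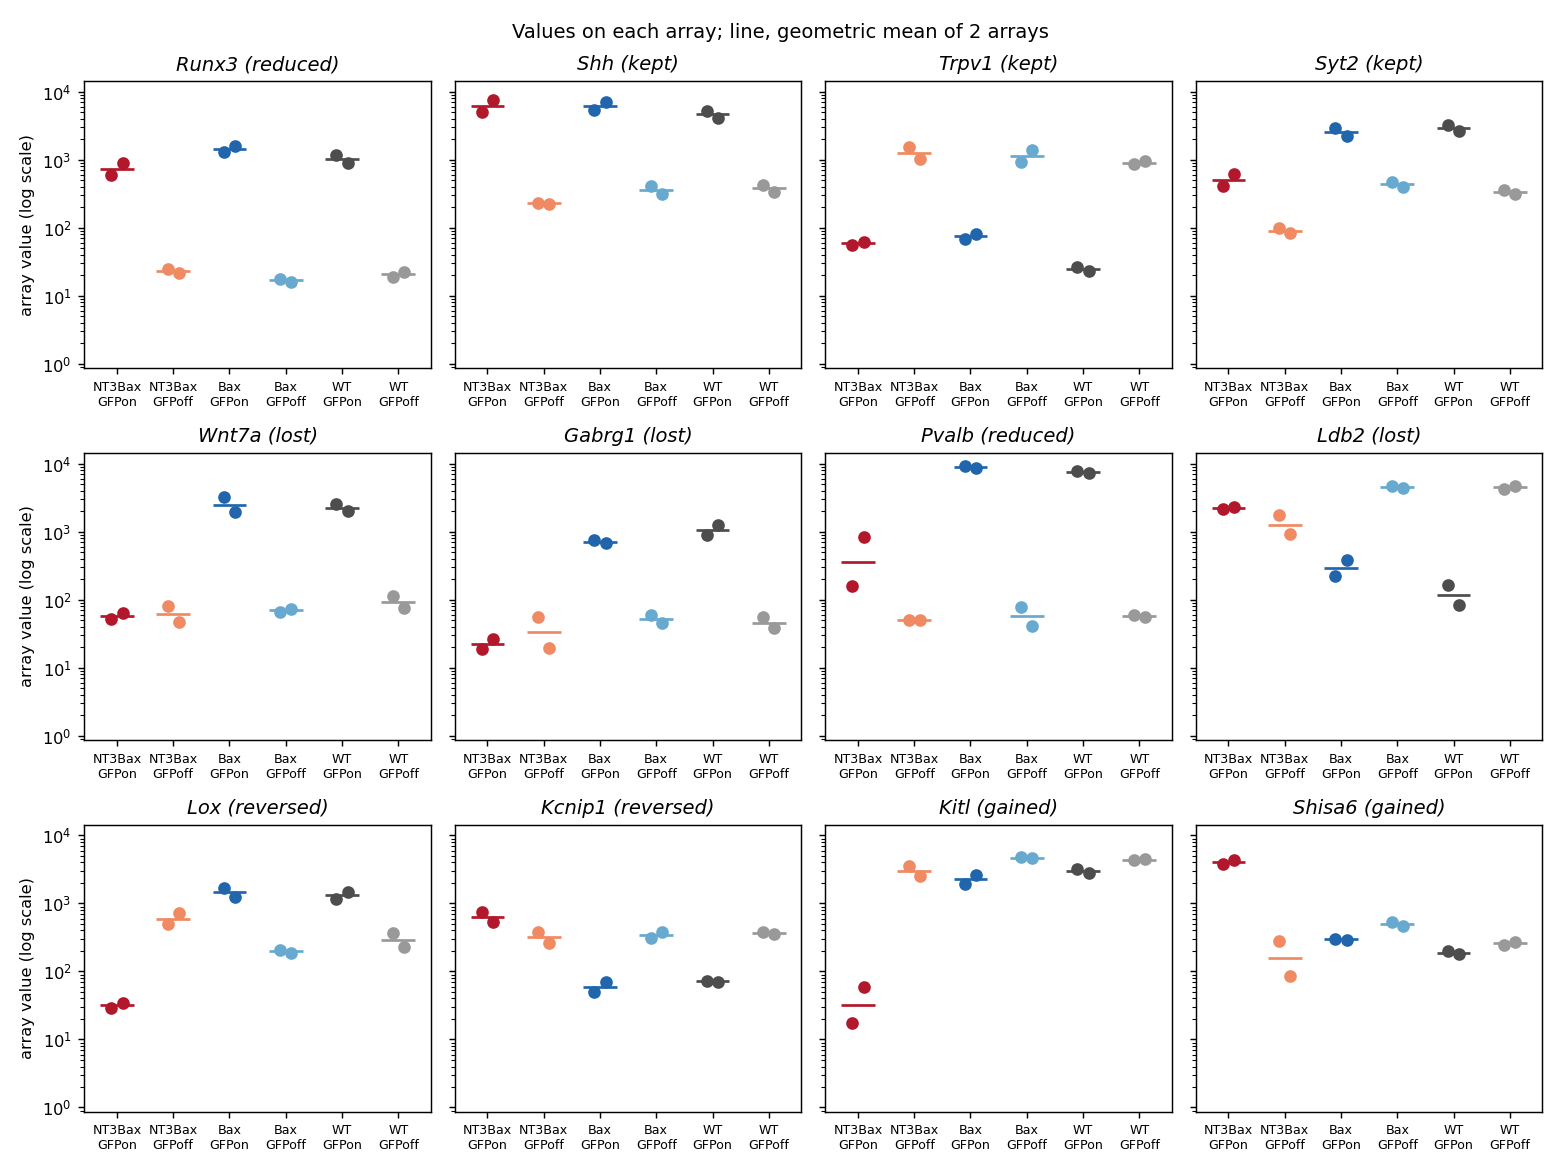
Array values (vertical axis, log scale) of 12 genes in each genotype and population (horizontal axis); points are arrays and lines are geometric means of 2 arrays, with the class of each gene in its title. Wnt7a and Gabrg1 are at the level of TrkC GFPoff cells in NT3-/-Bax-/- TrkC GFPon cells, Syt2 is lower in both populations, and Kcnip1 and Lox change order between the populations.

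Reversed genes that are higher in TrkC GFPon cells of the other genotypes changed in both populations for 45 of 88 genes and in TrkC GFPon cells only for 36. Lmo2, a LIM-only cofactor, read 93.05 and 96.16 in TrkC GFPon and 2234 and 2446 in TrkC GFPoff cells of NT3-/-Bax-/- mice, a difference of -4.63 (SE 0.29, adjusted p = 1.19e-06), against 1468 and 1126, and 283.2 and 427.6, in Bax-/- mice (1.89). Lox, a collagen crosslinking enzyme, read 29.08 and 34.8 against 497.3 and 716.2 (-4.23), with 1711 and 1250 in Bax-/- TrkC GFPon cells. The growth factor Bmp5 (-3.42 against 3.83 in Bax-/- mice) had the same pattern. Lmo2, Lox and Bmp5 all rose in TrkC GFPoff cells, by 2.75, 1.60 and 3.62, the population in which connective tissue and endothelial genes were high. Pcdh19, a protocadherin, and Grm3, a metabotropic glutamate receptor, reversed without a called change in TrkC GFPoff cells. Pcdh19 read 48.8 and 51.24 in TrkC GFPon and 269.4 and 279.4 in TrkC GFPoff cells (-2.46, SE 0.16, adjusted p = 1.88e-06), while Bax-/- TrkC GFPon cells read 1748 and 1574. Grm3 fell by 4.97 in TrkC GFPon cells, and its reversed difference (-2.19, adjusted p = 0.0114) was not called without TrkC GFPoff replicate 1 (-1.42, adjusted p = 0.103) or TrkC GFPon replicate 2 (-2.02, adjusted p = 0.0625).

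In the other direction, genes that TrkC GFPon cells normally have at low level were higher in them. Nell1, a secreted EGF-like protein, read 654.7 and 3239 in TrkC GFPon and 306.2 and 74.64 in TrkC GFPoff cells of NT3-/-Bax-/- mice, against 91.09 and 79.16, and 2501 and 1839, in Bax-/- mice. St6gal2, a sialyltransferase, and Lpar3, a receptor of lysophosphatidic acid, had differences of 2.88 and 2.14 without NT3 and of -4.02 and -4.37 in Bax-/- mice. Flrt3, an adhesion molecule listed here with nerve injury genes, read 1277 and 1317 in NT3-/-Bax-/- TrkC GFPon cells against 87.18 and 214.9 in Bax-/- ones (3.24, adjusted p = 0.000107), with no called change in TrkC GFPoff cells. Kcnip1, an auxiliary subunit of A-type potassium channels, read 746.2 and 539.8 against 49.73 and 69.24 (3.44, adjusted p = 3.26e-06). Kcnt1, a sodium-activated potassium channel, reversed through TrkC GFPoff cells, which read 187.1 and 64.5 without NT3 and 1566 and 1367 in Bax-/- mice. The calls of Kcnip1 and Lpar3 in NT3-/-Bax-/- mice were lost without TrkC GFPoff replicate 2 (adjusted p = 0.0593 and 0.065), and without TrkC GFPon replicate 1 for Kcnip1 (0.0645) and replicate 2 for Lpar3 (0.0665).

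Gained differences with a lower value in TrkC GFPon cells included genes that changed in TrkC GFPon cells. Kitl, the ligand of the receptor Kit, read 17.61 and 59.88 in TrkC GFPon and 3599 and 2533 in TrkC GFPoff cells of NT3-/-Bax-/- mice (-6.54, SE 0.41, adjusted p = 1.19e-06). In Bax-/- mice the populations read 1947 and 2598, and 4752 and 4707. The change was called in TrkC GFPon cells (-6.11, adjusted p = 3.42e-06) and not in TrkC GFPoff cells (adjusted p = 0.305). Piezo2, the mechanically gated channel of touch and proprioception, read 33.45 and 39.38 in NT3-/-Bax-/- TrkC GFPon cells against 2194 and 1659 in Bax-/- and 663.9 and 697.4 in wild-type TrkC GFPon cells. TrkC GFPoff cells of NT3-/-Bax-/- mice read 614.2 and 379, so that Piezo2 was lower in TrkC GFPon cells by 3.73 (SE 0.23, adjusted p = 1.19e-06). Socs3, a feedback inhibitor of cytokine signalling, read 209.2 and 86.48 against 3306 and 1893 in TrkC GFPoff cells (-4.22, SE 0.37). Which of its populations changed against Bax-/- mice is not given here.

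Most targets of the ERK pathway were lower in TrkC GFPon cells. Of 19 measured genes, 14 were called lower and none higher in NT3-/-Bax-/- TrkC GFPon than TrkC GFPoff cells, where 11.7% of all genes were called lower. The count was 6 lower and 1 higher in Bax-/- mice (5.06% and 5.32% of all genes) and 2 lower and 2 higher in wild-type mice (5.16% and 6.77%). The median log2 difference of the list was -1.28 in NT3-/-Bax-/-, -0.33 in Bax-/- and -0.21 in wild-type mice, beside 0.028 over all genes in NT3-/-Bax-/- mice. The difference was called more negative than in Bax-/- mice for 9 of the 19 and less negative for 1 (7.17% and 5.62% of all genes). In TrkC GFPon cells 12 genes were called lower than in Bax-/- TrkC GFPon cells (12.5% of all genes), with a median change of -1.24 over the list. In TrkC GFPoff cells 4 were lower (15.3% of all genes) and 5 higher (10.2%), and the median change was 0.08. With Bax-/- TrkC GFPoff arrays in place of their own, 13 of the 19 were lower, and with only the arrays of the contrast in the fit 8 were. TrkC GFPoff cells of NT3-/-Bax-/- mice were also those with high glia, endothelial and connective tissue genes, and the part of such cells in this count was not tested.

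Single members differed in how they changed. Dusp6, a phosphatase of ERK, read 17.8 and 54.09 in TrkC GFPon and 538.6 and 1584 in TrkC GFPoff cells (-4.90, SE 0.51, adjusted p = 3.82e-05), with 120.6 and 200.7 in Bax-/- TrkC GFPon cells. Phlda1, an immediate target of growth factor signalling, read 161.4 and 111.4 against 987.6 and 1234 (-3.04), and its difference was 0.04 in both Bax-/- and wild-type mice. Spry1, a Sprouty feedback inhibitor, reversed: TrkC GFPon cells read 61.51 and 109.2 against 454 and 609.2 in TrkC GFPoff cells without NT3, and 328.2 and 239.5 against 98.63 and 121.1 in Bax-/- mice. Spry2 (-1.0), Spred1 (-1.28) and Dusp4 (-1.88) were called lower in NT3-/-Bax-/- TrkC GFPon cells and in neither direction in Bax-/- or wild-type mice. The AP-1 member Fosl2 (-2.32) and Ier3 (-3.21) fell in TrkC GFPon cells too, while Egr2 (-3.56), a zinc finger factor of Schwann cells and of immediate early responses, was called higher in TrkC GFPoff cells and not lower in TrkC GFPon cells (adjusted p = 0.265). Etv5, an ETS factor, was lower in TrkC GFPon cells of all 3 genotypes and fell in both populations, by 2.03 in TrkC GFPon and by 1.99 in TrkC GFPoff cells. The call of Spry2 was lost without TrkC GFPon replicate 2 (-0.62, adjusted p = 0.232) or TrkC GFPoff replicate 2 (-0.83, adjusted p = 0.142). The test of Dusp4 against Bax-/- mice (-2.02, adjusted p = 0.0374) was lost without any one of 12 arrays (adjusted p up to 0.122).

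**Figure D5:**
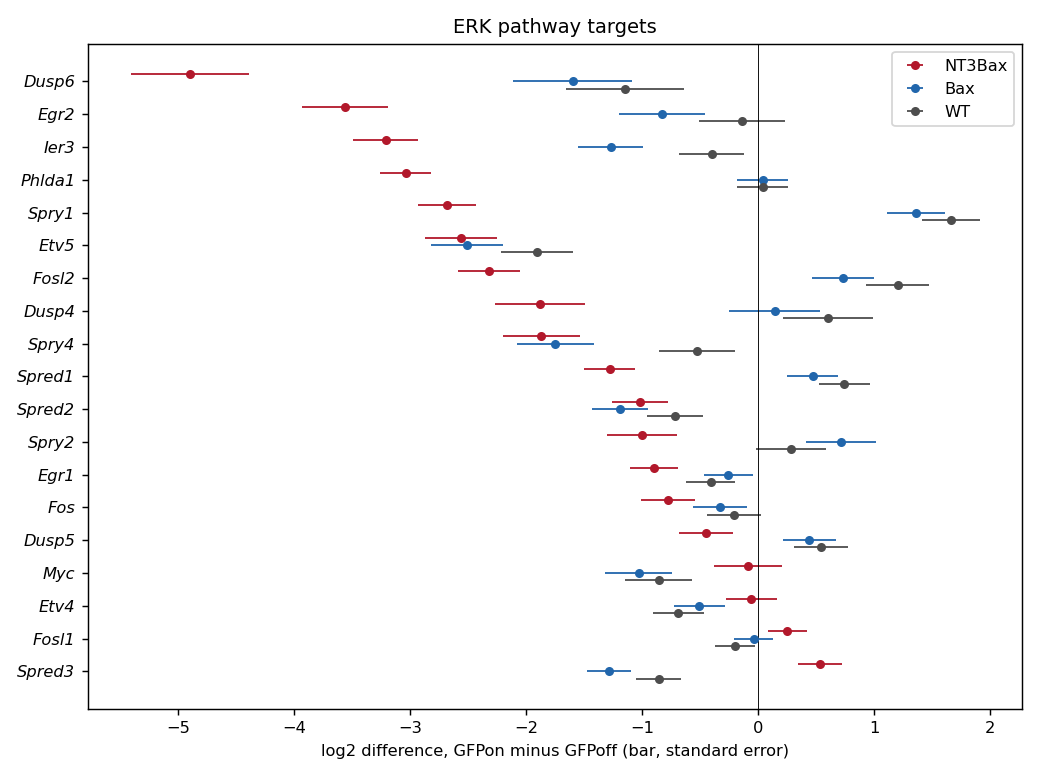
Population difference (horizontal axis, log2, TrkC GFPon minus TrkC GFPoff, bars are standard errors) of 19 ERK pathway targets (vertical axis) in NT3-/-Bax-/-, Bax-/- and wild-type mice. The 14 called genes lie below 0 in NT3-/-Bax-/- mice, while 6 of them (Spry1, Spry2, Spred1, Dusp4, Fosl2 and Phlda1) lie at or above 0 in Bax-/- and wild-type mice.

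Promoters of these targets are described because 14 of the 19 genes were called lower in NT3-/-Bax-/- TrkC GFPon cells. The arrays do not measure binding there, and shared regulation was not tested. RefSeq promoters (GRCm38.p6, 250 bases before to 50 after a start site) were found for 12 of the 19 genes. The ETS core AGGAAGT was searched on both strands and was in a promoter of 4 of the 12 (Dusp5, Etv5, Fos and Spred2), and 9.35% of all 32851 promoters hold it. The CRE TGACGTCA and the AP-1 sites TGACTCA and TGAGTCA, on both strands, were in none of the 12, and 1.79% and 5.20% of all promoters hold them. A gene was counted by a hit in any of its promoters, whereas the shares count single promoters, so the figures are not like for like. Of the 4 genes with the ETS core, Etv5, Fos and Spred2 were called lower in NT3-/-Bax-/- TrkC GFPon cells and Dusp5 was not (-0.45). The promoters of Etv5 and Spred2, which were called lower and fell in both populations against Bax-/- mice, are shown with the ETS core or its complement in capitals.
Etv5, chr16:22438319-22438618, minus strand: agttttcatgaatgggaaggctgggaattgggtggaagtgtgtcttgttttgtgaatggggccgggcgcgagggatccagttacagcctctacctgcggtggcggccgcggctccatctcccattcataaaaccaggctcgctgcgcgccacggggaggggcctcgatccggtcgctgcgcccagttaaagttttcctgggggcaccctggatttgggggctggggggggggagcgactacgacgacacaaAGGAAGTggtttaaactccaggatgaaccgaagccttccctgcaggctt
Spred2, chr11:19924192-19924491, plus strand: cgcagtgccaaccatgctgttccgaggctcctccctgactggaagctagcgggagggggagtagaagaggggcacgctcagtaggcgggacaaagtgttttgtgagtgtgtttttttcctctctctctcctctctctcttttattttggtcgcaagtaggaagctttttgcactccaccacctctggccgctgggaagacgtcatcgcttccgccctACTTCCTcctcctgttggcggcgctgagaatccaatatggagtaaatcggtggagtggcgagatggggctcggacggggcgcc

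Gained and enlarged differences with a higher value in TrkC GFPon cells had 2 sources. Shisa6, an auxiliary protein of AMPA receptors, rose in TrkC GFPon cells, with 3847 and 4284 in TrkC GFPon and 281.6 and 86.96 in TrkC GFPoff cells without NT3, against 301.5 and 291.1, and 538.5 and 462.9, in Bax-/- mice (4.70, SE 0.39, adjusted p = 7.23e-06), and it fell in TrkC GFPoff cells by 1.67. Glra2, a glycine receptor subunit, read 4479 and 3415 in NT3-/-Bax-/- against 328.1 and 551.3 in Bax-/- TrkC GFPon cells. Slc1a2, a glutamate transporter, read 1210 and 1787 against 192.3 and 212.3, and the LIM-only gene Lmo1 read 3465 and 2616 against 344.6 and 298, with a smaller rise in TrkC GFPoff cells (1.26). The splicing factor Nova1, the GABA-A subunit Gabrb2 and the ATP-gated channel P2rx1 rose in TrkC GFPon cells by 1.64, 2.53 and 1.36, and the enlarged call of P2rx1 was lost without Bax-/- TrkC GFPon replicate 2 (adjusted p = 0.0672), Bax-/- TrkC GFPoff replicate 2 (0.0816) or NT3-/-Bax-/- TrkC GFPon replicate 1 (0.066).

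Other enlarged differences came with a fall in TrkC GFPoff cells. Tafa2, a secreted chemokine-like protein, had the highest difference of all (5.86, SE 0.40, adjusted p = 2.24e-06), with TrkC GFPon values of 3849 and 4624 without NT3 and 5645 and 5804 in Bax-/- mice, and TrkC GFPoff values of 103.7 and 50.78 against 1320 and 517. Plekhd1 (5.59), the synaptic organizer Cbln2 (5.05), the homeobox gene Meis2 (5.29), the acid-sensing channel Asic3 (4.95) and Mir124-2hg (5.51), a host transcript of the neuronal microRNA miR-124, shared this, with log2 changes between -1.76 and -3.64 in TrkC GFPoff cells and no called change in TrkC GFPon cells. Of 11 nociceptor and thermoreceptor markers, 2 were called lower in these TrkC GFPoff cells than in Bax-/- mice, Scn10a among them. Over all genes 15.3% were. Chrna7, a nicotinic receptor subunit, was gained (2.83, adjusted p = 0.00495) with a called fall in TrkC GFPoff cells and none called in TrkC GFPon cells, and its change against Bax-/- mice was lost without Bax-/- TrkC GFPoff replicate 1 (adjusted p = 0.0598), as was that of Plekhd1 (0.0595).

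The lists that set the TrkC GFPoff arrays apart are given here by the same values, as a description and not as a further result. All 11 measured glia genes, 9 of 9 endothelial, 6 of 7 connective tissue and 9 of 9 cell division genes were called lower in NT3-/-Bax-/- TrkC GFPon cells (11.7% of all genes), against 1, 2, 2 and 0 in Bax-/- mice (5.06% of all genes). With Bax-/- TrkC GFPoff arrays in place of their own the counts were 7, 4, 2 and 2. Against Bax-/- mice, 5 of the 11 glia genes were called lower in TrkC GFPon cells (12.5% of all genes). In TrkC GFPoff cells 8 were called higher (10.2% of all genes) and 1 lower (15.3%). Zic1, a zinc finger factor of dermal and meningeal cells, read 13.85 and 14.33 in TrkC GFPon and 587.4 and 903.3 in TrkC GFPoff cells without NT3, and no more than 12.44 in either population of Bax-/- mice. Mki67, a marker of dividing cells, read 215.3 and 84.64 against 3472 and 4762, the endothelial receptor Tek 43.05 and 19.89 against 639.9 and 689.8, and the glial factor Sox2 93.04 and 56.84 against 1059 and 880.8. Several of the 10 lowest genes were of this kind: Col1a1 (-6.32), Dcn (-6.24), the procollagen cofactor Pcolce (-6.07), Rgs5 (-5.89), a pericyte gene, and Nfix (-5.80). The tight junction gene Cldn9 (-6.59) and S100a6 (-5.78), a calcium binding protein gene that fell in both populations, were lower in TrkC GFPon cells of all 3 genotypes. The protease Ctss (-6.71), of macrophages, read 10330 and 467.2 in the 2 TrkC GFPoff arrays and was not called without replicate 1 (-4.48, adjusted p = 0.085). Of 10 macrophage genes 3 were called lower, none without TrkC GFPoff replicate 1 or either TrkC GFPon array, and 9 without TrkC GFPoff replicate 2.

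Lists of neuronal function had calls in both directions, where 12.4% of all genes were called higher and 11.7% lower in NT3-/-Bax-/- mice, against 5.32% and 5.06% in Bax-/- mice. Among 31 potassium channel genes 10 were called higher and 5 lower in NT3-/-Bax-/- TrkC GFPon cells, against 6 and 8 in Bax-/- mice. Compared with Bax-/- cells, 19 were lower in TrkC GFPon (12.5% of all genes) and 18 lower in TrkC GFPoff cells (15.3%). Without NT3-/-Bax-/- TrkC GFPoff replicate 2, the higher count was 5. Transmitter release genes were called higher for 8 and lower for 2 of 31. Of the 31, 20 were lower than in Bax-/- mice in TrkC GFPoff cells (15.3% of all genes) and 11 in TrkC GFPon cells (12.5%). Without TrkC GFPon replicate 2 the higher count was 4. Axon guidance genes split, with 14 higher and 12 lower of 47 without NT3, against 14 and 12 in Bax-/- mice. Sodium channels were higher for 5 and lower for 2 of 11, as in Bax-/- mice, and cadherins higher for 7 and lower for 7 of 21, against 9 and 2 in Bax-/- mice. GABA-A receptor subunits were higher for 4 and lower for 2 of 9, against 4 and 0, and glutamate receptors higher for 6 and lower for 2 of 18, against 5 and 4. Sensory identity transcription factors were higher for 7 and lower for 7 of 25, against 6 and 7. With only the arrays of the contrast in the fit, the higher counts fell to 1 for potassium channels, 1 for transmitter release, 1 for sodium channels, 5 for axon guidance and 3 for glutamate receptors.

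Some death and stress genes were higher in both populations without NT3 than in Bax-/- mice. Hrk, a BH3-only gene induced by loss of neurotrophin, read 8733 and 8825 in TrkC GFPon and 2912 and 4606 in TrkC GFPoff cells of NT3-/-Bax-/- mice, against 598.4 and 762.7, and 420.5 and 720.2, in Bax-/- mice. It rose by 3.70 in TrkC GFPon (adjusted p = 7.82e-06) and by 2.73 in TrkC GFPoff cells (adjusted p = 6.92e-05), and its population difference of 1.26 was called (adjusted p = 0.00688) but not without TrkC GFPoff replicate 1 (0.93, adjusted p = 0.0627). The transcription factor gene Jun rose by 1.46 in TrkC GFPon and by 1.30 in TrkC GFPoff cells, and was 1.32 higher in TrkC GFPon cells, which was not called without TrkC GFPoff replicate 1 (0.96, adjusted p = 0.092). Of 8 BH3-only genes, 3 were called higher (Hrk, Bcl2l11 and Bid) and 1 lower (Bik) in NT3-/-Bax-/- TrkC GFPon cells (12.4% and 11.7% of all genes), against 2 higher in Bax-/- mice (5.32%). Against Bax-/- mice, 2 of the 8 were higher in TrkC GFPon cells and 3 in TrkC GFPoff cells, where 8.89% and 10.2% of all genes were. Of 16 nerve injury genes, the list that holds Jun, 6 were higher and 4 lower in TrkC GFPon cells, and 4 higher and 1 lower in TrkC GFPoff cells. Over all genes 12.5% were called lower than in Bax-/- mice in TrkC GFPon cells and 15.3% in TrkC GFPoff cells. Bcl2l11, which encodes Bim, had a difference of 1.33 without NT3 and 1.59 in Bax-/- mice. The calls of Bcl2l11, Bid and Bik were lost without 1 or more of the NT3-/-Bax-/- arrays, with adjusted p-values up to 0.183, 0.0515 and 0.216.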

How the data were processed

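Expression was measured with GeneChip Mouse Genome 430 2.0 arrays after in vitro transcription of RNA from sorted cells. According to the methods and the submitters' processing notes, the authors read the array files in R 2.9 with affy, summarised them with RMA, made present and absent calls with MAS5 (not used here) and tested groups by t-test or by analysis of variance. The deposited intensity values are linear, whereas the plan had assumed log2 values, and log2 was taken without a pseudocount. A build is not given in the sources used here. Whether all arrays were normalised together is not given either.

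One linear model with 8 group means and no covariates was fitted to 16 arrays of pooled lumbar DRG at P0 (limma 3.58.1, R 4.3.3, moderated by eBayes), so that the arrays of mlcNT3 mice entered the spread only. Contrasts were TrkC GFPon minus TrkC GFPoff, and the difference between genotypes of that contrast. Adjusted p-values are Benjamini-Hochberg over 45037 probe sets, with calls under 0.05, and differences are log2 with limma's standard error. Of 45101 probe sets, 64 controls were left out, 34958 had 1 gene, 932 several and 9211 no gene named here. The brightest probe set by mean log2 value stands for a gene. A fit on simulated data was checked first. Columns of 23 other arrays of the series were not used. Precision is limited by 2 arrays per group.

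The members and gene lists were chosen with earlier results of these data known. Named were markers, genes that the study names for these genotypes, the 10 highest and 10 lowest differences among calls without overlap, up to 8 genes per class with the largest difference from Bax-/- mice, and, from each list, at most 5 members with a call. Postn, Spry2, Spred1, Dusp4, Etv5, Fosl2 and Spred2 were outside this rule and were named after their values were seen. Alternatives are listed in the closing section. Etv1 was not analysed here since its probe sets carry several genes.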

Additional observations from a re-analysis of the deposited data

Results flagged for a closer look

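The population difference in NT3-/-Bax-/- mice differed from that in Bax-/- mice for 4348 probe sets and from that in wild-type mice for 4693, each by the test of the difference itself in limma. For the genes named above the difference (log2, NT3-/-Bax-/- minus Bax-/- mice) was called as follows, 2 arrays per population in each genotype. Proprioceptor genes had changes of -1.45 for Runx3, -1.84 for Ntrk3, -4.44 for Pvalb, -2.97 for Esrrg and -3.64 for Pth1r. Genes whose TrkC GFPoff values were high without NT3 had changes of -5.94 for Col1a1, -2.86 for Dcn, -4.49 for Mki67, -3.32 for Sox2, -3.46 for Tek, -5.60 for Zic1, -5.62 for Pcolce, -4.50 for Nfix and -3.04 for Cldn9. Lost or reduced genes that are higher in wild-type TrkC GFPon cells had changes of -5.25 for Wnt7a, -5.12 for Gpat3, -4.90 for Lancl3, -5.05 for Rhbdl3, -5.40 for Reg3b, -4.34 for Gabrg1, -4.00 for Lynx1, -3.09 for Scn4b, -4.45 for Vip, -3.74 for Slit2, -3.84 for Epha4, -5.30 for Htr2c, -3.11 for Kcnk1 and -3.10 for Wls. Lost genes that are lower in wild-type TrkC GFPon cells had changes of 2.46 for Gfra1, 4.79 for Ldb2 and 3.65 for Htr3b. Reversed genes had changes of -6.51 for Lmo2, -7.12 for Lox, -7.26 for Bmp5, -4.79 for Pcdh19, -4.74 for Grm3, -4.04 for Spry1, 7.93 for Nell1, 6.90 for St6gal2, 6.50 for Lpar3, 3.55 for Kcnip1, 4.28 for Kcnt1 and 3.71 for Flrt3. Gained genes that are lower without NT3, other ERK targets and S100a6 had changes of -5.47 for Kitl, -4.56 for Piezo2, -3.60 for Socs3, -1.71 for Spry2, -1.75 for Spred1, -2.02 for Dusp4, -3.30 for Dusp6, -2.73 for Egr2, -3.05 for Fosl2, -1.94 for Ier3, -3.08 for Phlda1 and -2.37 for S100a6. Gained or enlarged genes that are higher without NT3 had changes of 5.45 for Shisa6, 4.40 for Glra2, 3.73 for Chrna7, 3.07 for Tafa2, 2.70 for Plekhd1, 3.21 for Meis2, 3.24 for Slc1a2, 3.34 for Cbln2, 2.42 for Asic3, 1.97 for Lmo1, 1.77 for Nova1, 2.33 for Gabrb2, 1.17 for P2rx1 and 2.03 for Mir124-2hg. How far the cell makeup of the TrkC GFPoff arrays bears on them was not tested. The change of S100a6 was -0.88 (adjusted p = 0.443) with a pseudocount of 32, and was not called in a fit without mlcNT3 arrays (adjusted p = 0.0545). That of Spry2 was not called with array weights (adjusted p = 0.0627) or with only the arrays of the contrast (adjusted p = 0.107).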

How the results depend on the processing

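The spread was estimated over 16 arrays, and with 2 arrays per group most counts depend on that. Between the NT3-/-Bax-/- populations 8707 probe sets were called in the main fit. The total was 2053 with only the arrays of the contrast and 4774 with array weights. It was 5519 with a fold of 2 or more and an unadjusted p up to 0.02, and 1523 by the methods' t-test at that threshold. The same t-test called 1 after Benjamini-Hochberg adjustment. These are separate totals, and their overlap with the 8707 was not counted. Leaving out each array of the main fit gave 7047 to 9498. The test against Bax-/- mice (4348) gave 1249 with only the arrays of the contrast, 2365 with array weights and 2622 to 5035 leaving out each array, the lowest without Bax-/- TrkC GFPoff replicate 1. That against wild-type mice (4693) gave 2737 to 5420, with 2923, 2755, 2737 and 2932 without each of the 4 wild-type arrays. Kept probe sets (799) numbered 252 with only the arrays of the contrast, 424 at an adjusted p under 0.01, and 529 (without wild-type TrkC GFPoff replicate 1) to 868 leaving out each array. Lost probe sets (621) numbered 261, 336, and 409 (without Bax-/- TrkC GFPoff replicate 1) to 752 under the same settings. Reversed probe sets (239) numbered 22 and 74 under these, 119 with array weights, 153 at the unadjusted threshold, and 132 to 250 leaving out each array, again lowest without Bax-/- TrkC GFPoff replicate 1. Gained probe sets (2498) numbered 482 and 1177, 986 with array weights, and 1501 to 2953, with the same array giving the lowest. Enlarged probe sets (96) numbered 19 with only the arrays of the contrast and 44 (without Bax-/- TrkC GFPoff replicate 2) to 132 leaving out each array, and reduced ones (85) 4 and 46 (without NT3-/-Bax-/- TrkC GFPon replicate 1) to 104. An alternative chosen after seeing the data put Bax-/- TrkC GFPoff arrays in the place of the NT3-/-Bax-/- ones and gave 8566 called, 217 enlarged, 159 reversed and 3897 gained. It mixes genotype with population. The cause of these shifts was not tested beyond what fewer arrays in a fit imply.

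Replicate numbers are not said to mark shared animals, and deviations of same-numbered arrays correlated at 0.283 in Bax-/-, 0.158 in NT3-/-Bax-/-, 0.197 in wild-type and 0.008 in mlcNT3 mice. With the replicate block 9039 probe sets were called between the NT3-/-Bax-/- populations, 4449 against Bax-/- and 4954 against wild-type mice, and of 190 results for single genes 185 kept their call, 3 lost it and 2 gained one. No result for a single gene reversed under any alternative. With only the arrays of the contrast 139 of the 190 kept their call and 51 lost it. Calls were the same for 188 of 190 with quantile normalization, 188 with median centring, 176 with a pseudocount of 32 and 170 with array weights. Values near the bottom of the scale, such as those of Htr2c without NT3, are limited by array background.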
